A study of Mus musculus with 38 samples.

Results

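The 10 genes described here encode glycoproteins of the extracellular matrix and components of the elastic fibre. They are fibronectin (Fn1), periostin (Postn), tenascin C (Tnc), osteonectin (Sparc), the thrombospondins Thbs1 and Thbs2, osteopontin (Spp1), fibrillin 1 (Fbn1), elastin (Eln) and fibulin 5 (Fbln5). They were chosen by the function of their products, with earlier results of these data known, and are 10 of the 21705 genes in the table.

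Mouse RNAseq compared cell lines and tumours from 3 genotypes of a kidney cancer model with wild type kidney, in 38 libraries and 10 groups. All 3 genotypes carry Tet-O-MYC, a transgene switched on by doxycycline (Dox) through rtTA from the Ksp promoter, which limits it to tubule epithelium. Genotype MYC+ has the transgene alone, Vhl-/-; MYC + (VM) also lost Vhl through a tamoxifen-inducible Cre from the Ksp promoter, and Vhl-/-; MYC +; Ink-/-/Arf-/- (VIM) adds germline loss of Ink4a/Arf. The cell groups are MYC-2983, VM-3055 and VIM-3039, each with 4 libraries labelled as maintained on Dox and 4 labelled as withdrawn from it. The line numbers of the VM and VIM cells come from the paper. Each genotype is represented by a single line, so genotype and line cannot be told apart. The tumour groups, all labelled as maintained on Dox, hold 3 MYC, 3 VIM and 3 VM libraries. MYC tumour replicates 2 and 3 carry the same mouse number, so that group covers 2 mice. The 5 normal kidneys are labelled Wild Type with vehicle, and their titles start with B6 (replicates 1 and 3) or KT (replicates 2, 4 and 5). Ages of the sampled mice are not given in the sources used here.

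Levels are read estimates that the authors scaled to an upper quartile of 1000 in each library, given below as units. The libraries hold an estimated 8.22 to 36.6 M reads with a median of 15.25 M, and group medians run from 9.59 M in MYC tumours to 25.61 M in MYC-2983 libraries labelled with Dox. A level of 3 reads, equal to 1.16 to 5.65 units, is the floor under which a gene counts as barely detected. Differences are on the log2 scale from limma on log2(value + 1), given with their SE, and a gene is called higher or lower where its adjusted p is under 0.05 and the difference is larger than 1. Differences of the means in units are given as folds.

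Fibronectin is assembled at the cell surface into fibrils that bind integrins and collagen. Tenascin C, periostin, osteonectin, the thrombospondins and osteopontin are matricellular proteins, which tune how cells attach to and respond to matrix more than they build it. In elastic fibres, elastin is deposited on fibrillin microfibrils with the help of fibulin 5, and in the kidney these fibres lie mainly in artery walls, whereas osteopontin is a product of tubule cells.

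The engineered genes were read first, as a check of the labels. Vhl had 433 to 461 units in MYC-2983 libraries labelled with Dox, 10.3 to 14.9 in VM-3055 and 8.32 to 18 in VIM-3039. In tumours Vhl had 560, 471 and 468 units in MYC, 226, 219 and 312 in VIM and 79.9, 40.2 and 40.7 in VM replicates 1 to 3. Cdkn2a, the Ink4a/Arf gene, had 24.9 to 40.8 units over the 8 VIM-3039 libraries and 3056 to 5701 over the other cell libraries. In tumours Cdkn2a had 33.9, 30.1 and 95.5 units in VIM, 4298, 4347 and 3392 in VM and 108, 2872 and 59.3 in MYC, so VIM and MYC tumours overlapped. Vhl in cells and tumours and Cdkn2a in cells follow the genotype labels, whereas mouse Myc goes against the Dox label. In MYC-2983 cells Myc had 651 to 699 units in libraries labelled with Dox and 1764 to 1868 in those labelled without. The ranges were 338 to 413 and 1308 to 1406 units in VM-3055, and 360 to 432 and 1384 to 1532 in VIM-3039. The species of the transgene sequence is not stated in the sources used here, and its reads cannot be separated from the Myc value. Nucleolin (Ncl), ornithine decarboxylase (Odc1) and spermidine synthase (Srm), textbook MYC targets chosen after their values were seen, were higher in libraries labelled with Dox in all 3 lines. Srm, for example, averaged 6264 against 2115 units in MYC-2983, 5682 against 864 in VM-3055 and 5617 against 856 in VIM-3039. Since those genes were picked by their values they are no test of the labels. The paper reports immunoblots of these lines in which MYC protein depended on Dox. It also reports that signatures of ribosome biogenesis were enriched with Dox in the VM and VIM cells, and signatures of MYC activation in the VM cells. Both reports run the way the Dox labels say, unlike the mouse Myc level. Why that level was lower in libraries labelled with Dox was not tested. Groups are named by their labels below, and a difference is always that of libraries labelled with Dox minus those labelled without.

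All cell libraries expressed markers of renal epithelium. The summed level of 4 such markers was 5546 to 17425 units over the cell groups, with the kidney cadherin Cdh16 the most abundant. The 5 proximal tubule markers averaged 3466 to 5997 units over the cell groups, led by Lrp2, against 193643 in normal kidney. One of them, the phosphate transporter Slc34a1, was at 0 in all cell libraries except 1 VIM-3039 library labelled without Dox, at 0.949 units. In tumour libraries the renal epithelium markers summed to 8345 to 17666 units, with Pax2 at 0 in VIM replicate 3 and in VM replicates 2 and 3.

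Across the 10 groups the members fall into different orders of level. Fn1, Tnc and Thbs1 were higher in all 6 cell groups than in any tumour or kidney group. Fn1 averaged 196625 ± 11842 units (SD, n = 4) in VIM-3039 libraries labelled without Dox and 401 ± 314 (SD, n = 5) in normal kidney, and its 4 tissue groups overlapped one another. Thbs2 showed the opposite order, with 84.9 to 185 units on average in the tissue groups and at most 2.28 in the cell groups. Spp1 stood highest in the 3 tumour groups, which overlapped, and lowest in VM-3055 libraries labelled with Dox, which overlapped normal kidney. Fbln5 was highest in normal kidney, at 2207 ± 779 units (SD, n = 5), apart from every other group. Postn and Fbn1 were highest in MYC-2983 cells labelled without Dox, at 27058 ± 551 and 1435 ± 121 units (SD, n = 4). Eln was highest in VM tumours at 1106 ± 1067 units (SD, n = 3), which overlapped VIM tumours, and was at 0 in all 16 VM-3055 and VIM-3039 libraries.

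**Figure D1:**
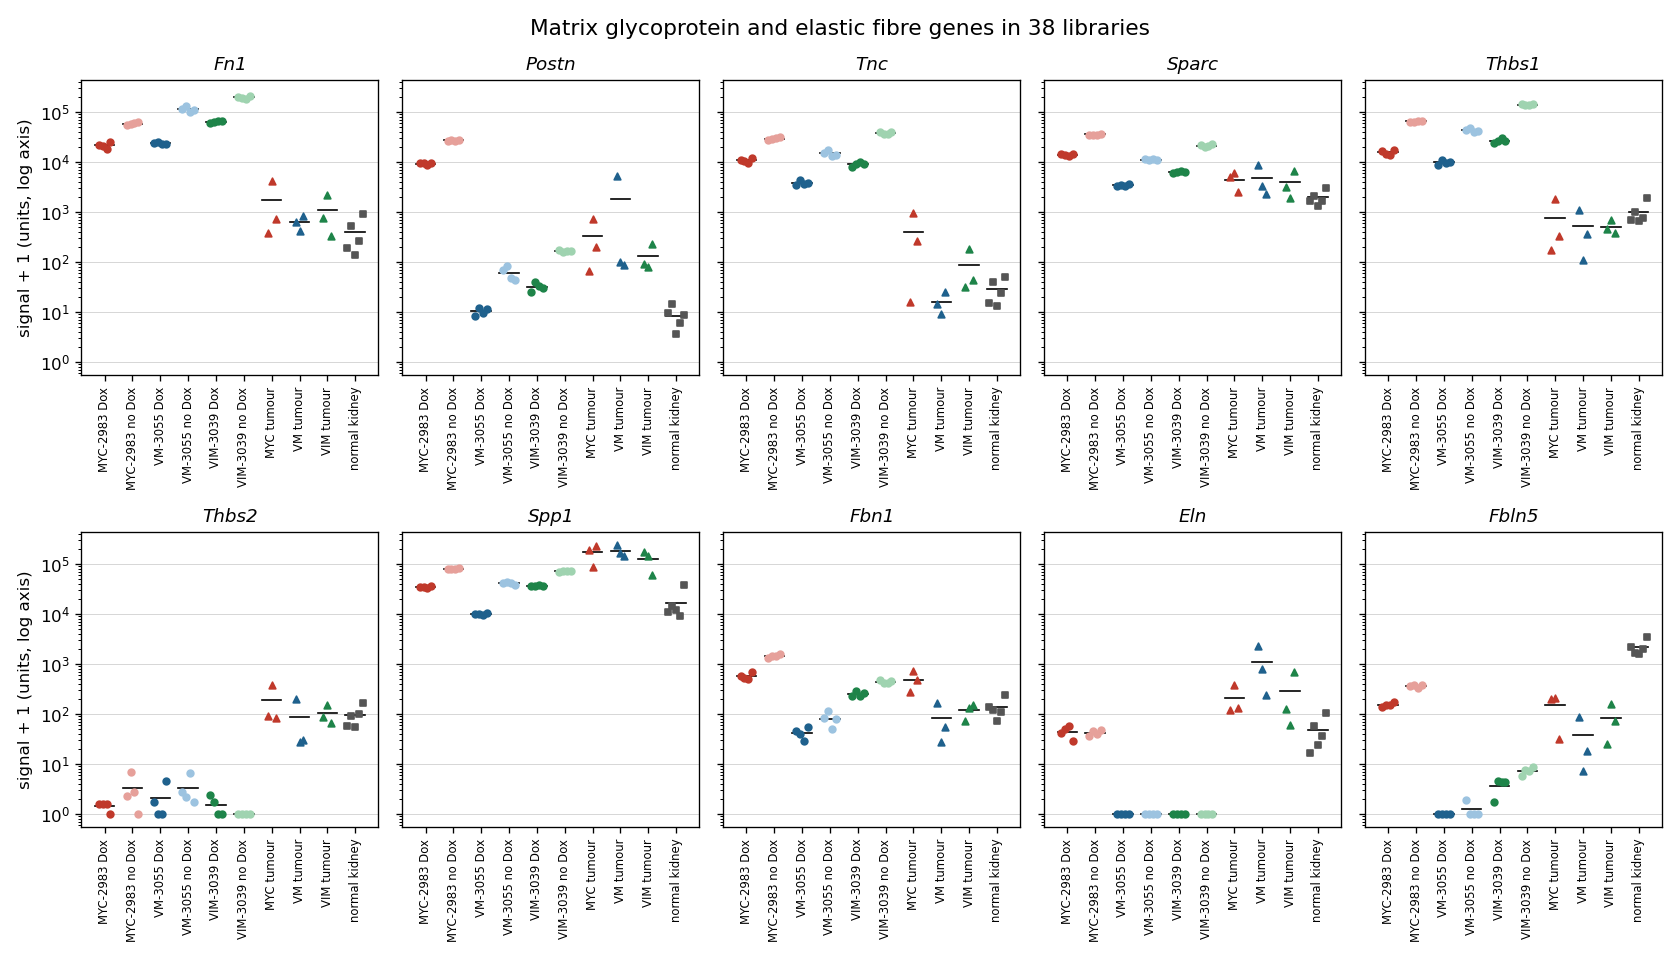
Level of each member in each library (units plus 1, log axis), grouped by cell line, tumour genotype and normal kidney, with circles for cells, triangles for tumours, squares for kidney and a line at each group mean. Fn1, Tnc and Thbs1 sit higher in every cell group than in any tissue group, Thbs2 lower, and Fbln5 is highest in normal kidney.

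Levels of different genes are compared per kb of the longest coding transcript. On that scale Spp1 was the most abundant member in all 10 groups, from 6610 units per kb in VM-3055 cells labelled with Dox to 122040 in VM tumours. Sparc came next in all 4 tissue groups, with 849 units per kb in normal kidney and 2071 in VM tumours. Fbln5 ranked behind them in normal kidney at 379 units per kb. In VIM-3039 cells labelled without Dox, Thbs1 had 24004 and Fn1 23656 units per kb. In VM tumours Postn had 555 and Eln 428 units per kb, and the Postn mean rests on replicate 1, at 5149 units against 96.9 and 83.8 in the others.

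The patterns of several members over the 10 groups resembled each other. Fn1 and Tnc correlated at r = 0.97 over group means on the log2 scale, as did Fn1 and Thbs1, while Fn1 and Thbs2 correlated at −0.92. Among 13354 genes that reach 50 units in a group, those nearest in pattern over the 10 groups were Filip1l for Fn1 (r = 0.991), Arsi for Postn (0.962), Wisp1 for Tnc (0.989), Actg1 for Sparc (0.989) and Fyn for Thbs1 (0.993). For the others they were Cyth4 for Thbs2 (0.996), Itih3 for Spp1 (0.957), Hoxb9 for Fbn1 (0.963), Mchr1 for Eln (0.989) and Ehd3 for Fbln5 (0.994). The points are 10 group means, several of which share a line, so these values are descriptions.

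The comparison of libraries labelled with and without Dox asks how the matrix genes differ with the MYC switch of each line. Fibronectin and the matricellular genes Postn, Tnc, Sparc and Thbs1 were called lower in libraries labelled with Dox in all 3 lines, with means 2.59 to 6.39 times lower. Spp1 was called lower in MYC-2983 and VM-3055 cells and fell short of the size threshold in VIM-3039 cells. Of the elastic fibre genes Fbn1 was called lower in MYC-2983 cells, Fbln5 in MYC-2983 and VIM-3039 cells, and Eln was not called. In MYC-2983 cells 8 of 10 tested members were called lower and 0 higher, against 15% and 4.49% of 15104 tested genes. The limma count at an unadjusted p under 0.05 was 8, and voom called 8. In VM-3055 cells 6 of 8 tested members were lower and 0 higher, against 18.9% and 5.92% of 14319 genes, with 7 members at an unadjusted p under 0.05 and 7 called by voom. In VIM-3039 cells 6 of 8 were lower and 0 higher, against 16.6% and 7.67% of 13998 genes, with 8 at an unadjusted p under 0.05 and 6 called by voom. The members that were not tested, Eln and Fbln5 in VM-3055 and Thbs2 and Eln in VIM-3039, had a level above 0 in fewer than 4 libraries.

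Fn1 (chromosome 1, 71632094 to 71699774 of mm9, minus strand, 46 exons, overlapped on the other strand by Apol7d), which forms the fibrils that cells adhere to, had 22008, 20942, 18525 and 24726 units in MYC-2983 libraries labelled with Dox. Without Dox it had 55096, 56710, 59572 and 62440 units. All 4 libraries labelled with Dox lay lower than the 4 others, by −1.45 ± 0.0632 (SE, adjusted p = 2.52e-13). In VM-3055 cells Fn1 had 23733, 25627, 22765 and 22643 units with Dox and 114293, 132749, 100479 and 110156 without. This gap was wider, with no overlap, at −2.27 ± 0.0793 (SE, adjusted p = 3.73e-14), a 4.83-fold lower mean. In VIM-3039 cells Fn1 had 59623, 63453, 64892 and 64906 units with Dox and 203007, 193336, 181581 and 208575 without. The groups were again apart, by −1.64 ± 0.0504 (SE, adjusted p = 1.51e-17), and VIM-3039 cells had the highest mean of the 3 lines under either label. Quantile normalization brought Fn1 under the size threshold in MYC-2983 (−0.86) and VIM-3039 cells (−0.97).

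Thbs1 (chromosome 2, 117937612 to 117952869, plus strand, 22 exons), which binds cell surface receptors and activates latent TGF-beta, had 16414, 14482, 13915 and 17132 units in MYC-2983 libraries labelled with Dox. Without Dox it had 63616, 63451, 65610 and 67096 units. The highest library with Dox lay far under the lowest without, and the difference was −2.07 ± 0.0521 (SE, adjusted p = 1.33e-16). In VM-3055 cells Thbs1 had 8821, 10850, 9480 and 10071 units with Dox and 43551, 48145, 39870 and 42496 without. No libraries overlapped, and the difference was −2.15 ± 0.0685 (SE, adjusted p = 1.21e-14). In VIM-3039 cells Thbs1 had 23747, 26681, 29635 and 26234 units with Dox and 143508, 136094, 136164 and 145744 without. This was a 5.28-fold lower mean with the groups apart, at −2.40 ± 0.053 (SE, adjusted p = 7.62e-20).

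Spp1 (chromosome 5, 104864137 to 104870069, plus strand, 6 exons), a secreted phosphoprotein that binds integrins and CD44, had 34231, 35060, 33296 and 35501 units in MYC-2983 libraries labelled with Dox. Without Dox it had 81060, 79941, 78772 and 82873 units. The 2 groups were narrow and apart, by −1.22 ± 0.0353 (SE, adjusted p = 7.84e-16), and quantile normalization gave −0.58. In VM-3055 cells Spp1 had 9817, 10031, 9732 and 10268 units with Dox and 42019, 44010, 42312 and 38783 without. The gap was 4.19-fold with no overlap, at −2.07 ± 0.0525 (SE, adjusted p = 8.46e-16). In VIM-3039 cells Spp1 had 36186, 36274, 37242 and 36524 units with Dox and 68506, 74012, 72106 and 73546 without. These groups were apart too, but the difference of −0.98 ± 0.0384 (SE, adjusted p = 8.87e-16) was too small to be called. Without VIM-3039 replicate 1 labelled without Dox it was called, at −1.0, and quantile normalization gave −0.25.

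Postn (chromosome 3, 54165031 to 54194961, plus strand, 22 exons), which cross-links collagen networks and binds integrins, was abundant in MYC-2983 cells alone among the lines. There it had 9582, 9319, 8665 and 9603 units with Dox and 26766, 27403, 26439 and 27627 without. The groups were apart by −1.54 ± 0.0333 (SE, adjusted p = 2.29e-17). In VM-3055 cells it had 7.39, 11.1, 8.49 and 10.5 units with Dox and 68.8, 81.4, 47.3 and 41.8 without. All of these lay above the floor and did not overlap, and the difference was −2.52 ± 0.228 (SE, adjusted p = 1.43e-08). VIM-3039 libraries had 24.3, 38.8, 31.5 and 29.1 units with Dox and 170, 159, 163 and 163 without. The difference there was −2.39 ± 0.14 (SE, adjusted p = 1.01e-12), again without overlap.

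Tnc (chromosome 4, 63620819 to 63681760, minus strand, 26 exons, with 8030451A03Rik on the other strand), an anti-adhesive glycoprotein of remodelled matrix, had means of 10807 units with Dox and 29446 without in MYC-2983 cells. Its differences were −1.45 ± 0.0543 (SE, adjusted p = 2.83e-14) in MYC-2983, −1.97 ± 0.0721 (SE, adjusted p = 6.8e-14) in VM-3055 and −2.07 ± 0.0498 (SE, adjusted p = 2.88e-19) in VIM-3039 cells. Sparc (chromosome 11, 55208002 to 55233582, minus strand, 10 exons), which binds collagen and counters cell spreading, had means of 13786 and 35664 units in MYC-2983 cells. The Sparc differences were −1.37 ± 0.0337 (SE, adjusted p = 1.01e-16), −1.71 ± 0.0427 (SE, adjusted p = 7.06e-16) and −1.78 ± 0.0385 (SE, adjusted p = 6.03e-20) in the same order of lines. For both genes every library labelled with Dox was lower than every other library of its line. Thbs2 (chromosome 17, 14802507 to 14831269, minus strand, 22 exons), a relative of Thbs1 that limits angiogenesis, was near the floor in all cell groups, with 0 to 5.92 units. It was not called in MYC-2983 (−0.89 ± 0.468, adjusted p = 0.0938) or VM-3055 cells (−0.78 ± 0.525, adjusted p = 0.191). Leaving out MYC-2983 replicate 4 labelled without Dox, at 0 units, gave a call at −1.34 (adjusted p = 0.00948), and leaving out VM-3055 replicate 4 labelled with Dox, at 3.51 units, gave one at −1.25. Without MYC-2983 replicate 2 labelled without Dox, at 5.92 units, the difference was −0.41.

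Among the elastic fibre genes, Fbn1 (chromosome 2, 125126330 to 125333729, minus strand, 65 exons, with Gm9913 on the other strand), the backbone of microfibrils, had 585, 526, 495 and 683 units in MYC-2983 libraries labelled with Dox. Without Dox it had 1292, 1421, 1440 and 1587 units. These groups were apart by −1.33 ± 0.0752 (SE, adjusted p = 1.05e-11). In VM-3055 cells Fbn1 had 28.0 to 52.6 units with Dox and 48.1 to 112 without, which overlapped, and its −0.91 ± 0.224 (SE, adjusted p = 0.0014) was not called. It was called at −1.02 by voom, at −1.03 without Dox replicate 4 and at −1.13 without replicate 3 of the libraries labelled without Dox, whereas quantile normalization gave −0.25. In VIM-3039 cells its 224 to 282 units with Dox and 405 to 467 without were apart, at −0.80 ± 0.0769 (SE, adjusted p = 3.89e-09), which is under the size threshold.

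Fbln5 (chromosome 12, 102984775 to 103057265, minus strand, 11 exons), which links elastin to cells and to microfibrils, had 136, 148, 151 and 170 units in MYC-2983 libraries labelled with Dox. Without Dox it had 361, 374, 322 and 377 units. The groups were apart by −1.24 ± 0.0704 (SE, adjusted p = 1.13e-11). In VIM-3039 cells it was close to the floor, with 0.694, 3.47, 3.28 and 3.23 units with Dox and 4.75, 6.69, 6.12 and 7.47 without. Its difference of −1.07 ± 0.369 (SE, adjusted p = 0.0125) was no longer called with a pseudocount of 10 (−0.36), after rescaling by the trimmed mean (−0.96) or with quantile normalization (−0.55). The call was also lost without Dox replicate 1 (−0.73, adjusted p = 0.0641) and without replicate 4 of the libraries labelled without Dox (−0.99). In VM-3055 cells Fbln5 was at 0 in 7 of 8 libraries. Eln (chromosome 5, 135179651 to 135223111, minus strand, 37 exons), the core of the elastic fibre, had 39.7, 48.4, 55.8 and 27.3 units in MYC-2983 libraries labelled with Dox. Without Dox it had 34.8, 44.7, 38.2 and 45.7 units, so the groups overlapped, with a difference of 0.03 ± 0.183 (SE, adjusted p = 0.902). The sign of that small difference turned without Dox replicate 2 (−0.05) or 3 (−0.11), or without replicate 1 (−0.05) or 3 (−0.00) of the libraries labelled without Dox.

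The size of the difference was compared between lines by interaction tests. Spp1 was less lowered in VIM-3039 than in VM-3055 cells, by 1.09 ± 0.0637 (SE, adjusted p = 2.14e-11), or 1.94 with quantile normalization. It was the only called member of 9 tested between those lines, 1 with a higher difference and 0 lower, against 3.70% and 2.35% of 15180 genes, with 3 members at an unadjusted p under 0.05 by limma and 1 called by voom. Between VM-3055 and MYC-2983 cells 1 of 10 members was called higher and 0 lower, against 3.26% and 5.53% of 15813 genes, with 6 at an unadjusted p under 0.05 and 1 called by voom. The member called by limma was Fbln5, which is at the floor in VM-3055 cells, so its fitted 1.01 ± 0.288 (SE, adjusted p = 0.00661) bounds nothing. Its call was lost with a pseudocount of 0.1 (0.42), voom (1.22, adjusted p = 0.162), the trimmed mean (0.97) or quantile normalization (0.91, adjusted p = 0.0166). It was also lost without MYC-2983 Dox replicate 1 (0.96), MYC-2983 replicates 2 (0.99) or 4 (0.99) labelled without Dox, or VM-3055 replicates 2, 3 or 4 labelled without Dox (0.94 each). Spp1 itself did not pass between VM-3055 and MYC-2983, at −0.84 ± 0.0606 (SE, adjusted p = 7.29e-10), and neither did Postn, at −0.97 ± 0.201 (SE, adjusted p = 0.000439), which was the member that voom called (−1.14). Between VIM-3039 and MYC-2983 cells 0 of 10 members were called in either direction, against 4.54% higher and 4.52% lower of 15630 genes, with 8 at an unadjusted p under 0.05 by limma and 0 called by voom.

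**Figure D2:**
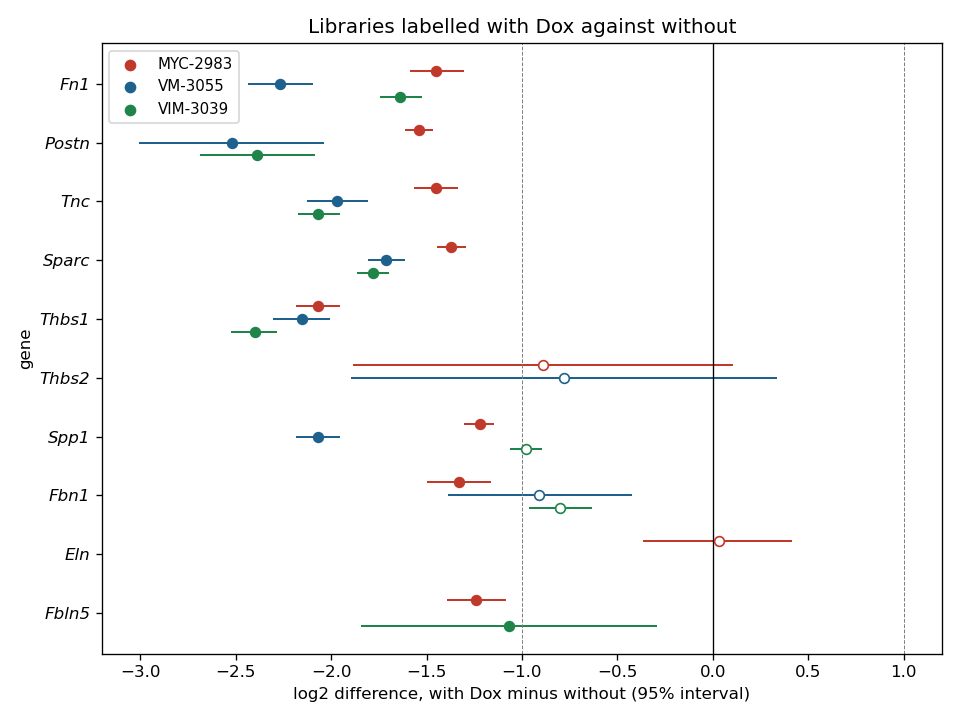
Log2 difference of each tested member between libraries labelled with and without Dox, with its 95% interval, in the 3 cell lines (4 libraries per label). Filled points are called and open points are not, dashed lines mark −1 and 1, and every called member lies under −1.

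Scaling moved the whole distribution in these comparisons. Among genes that average 50 units or more, the median difference was −0.06 (MYC-2983), −0.17 (VM-3055) and −0.09 (VIM-3039). Rescaling by the trimmed mean gave 0.06, 0.06 and 0.05 in the same order. The member differences above lie on the authors' scaling, beside those first medians. The p-values rest on the spread between libraries of 1 line, whose variance had a median of 1.40 to 3.30 times that of counting alone.

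Of 42 other matrix genes listed by function, 36 were tested in MYC-2983 cells. Of these, 16 were called lower and 2 higher in libraries labelled with Dox, against 15% and 4.49% of all tested genes. The median difference of the 36 was −0.72, or −0.62 with genes at the floor set to their bound, beside −0.13 over all tested genes. Ecm1, a secreted glycoprotein of basement membranes, averaged 330 units with Dox and 1730 without, and Ltbp2, a microfibril-associated protein, 269 and 1380. The calcium-binding Smoc1 went the other way, with 577 and 139 units. In VM-3055 cells 11 of 26 were lower and 2 higher, against 18.9% and 5.92% of all tested genes. The median there was −0.74 beside −0.26, and Ecm1 averaged 242 against 1740 units. In VIM-3039 cells 12 of 31 were lower and 2 higher, against 16.6% and 7.67% of all tested genes. The median there was −0.68 (−0.64 with floor genes at their bound) beside −0.15, and Ltbp2 averaged 30.1 against 327 units.

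Of 18 receptor genes for these proteins, 10 of 18 tested were lower and 0 higher in MYC-2983 cells, 10 of 16 and 0 in VM-3055, and 9 of 16 and 0 in VIM-3039. Over all tested genes 15%, 18.9% and 16.6% were lower and 4.49%, 5.92% and 7.67% higher in the same order of lines. The median differences of the receptors were −1.07, −1.12 and −1.26, beside −0.13, −0.26 and −0.15 over all tested genes. With floor genes at their bound they were −0.99, −1.12 and −1.04. Itgb3, a subunit of the integrin that binds Fn1, Spp1 and Thbs1, averaged 313 against 1150 units in MYC-2983, 55 against 288 in VM-3055 and 162 against 1090 in VIM-3039 cells. Itga5, which pairs into the main fibronectin receptor, averaged 1840 against 10300 units in VIM-3039 cells.

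Markers of other cell types were read in the cell lines as well. The 10 fibroblast and myofibroblast markers summed to 16024 to 18812 units in MYC-2983 libraries labelled with Dox and 67915 to 72344 in those without, and Acta2 was the most abundant under both labels. In VM-3055 cells the sums averaged 96.2 with Dox and 690 units without, led by Col1a2, and in VIM-3039 cells 576 and 5160, led by Acta2. Thy1 was at 0 in all 16 VM-3055 and VIM-3039 libraries, and Lum and Fap were at or under the floor there. Mural markers (6 genes, Cspg4 or Cnn1 on top) averaged 2133 and 4984 units in MYC-2983, 1052 and 1883 in VM-3055, and 720 and 1768 in VIM-3039 cells. Platelet markers (4 genes, Itga2b or Ppbp on top) averaged 24.5 to 946 units over the cell groups, and leukocyte markers (7 genes, Csf1r on top) 243 to 982. Endothelial markers (6 genes, Egfl7 on top) summed to 188 units with Dox and 80.7 without in MYC-2983, 105 and 38.8 in VM-3055, and 138 and 64.3 in VIM-3039 cells. Of 4, 3 and 2 tested endothelial markers 1 was called higher in each line and 0 lower, with medians of −0.37, −0.09 and 0.16. Emr1 was at 0 in all cell libraries. The fibroblast, mural, platelet and leukocyte sums were lower in libraries labelled with Dox in all 3 lines. Most members and the renal epithelium sum were lower too. Sums follow their most abundant genes, and not every marker fell. Of 4 renal epithelium markers 0, 1 and 0 were called higher and 1, 1 and 0 lower, by line in the order above. Their medians were −0.75, −0.58 and −0.35. Of 3, 4 and 4 tested leukocyte markers 1, 4 and 0 were called lower and 0 higher, with medians of −0.91, −1.70 and −0.32. The part of these cell types in the member differences was not tested. In bulk samples, fewer cells of a type and less RNA per cell cannot be told apart.

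The upstream sequence is shown for members that were lower in libraries labelled with Dox, since these moved in the same direction in all 3 lines. Of the 10 members, 7 have promoters in the RefSeq set for GRCm38.p6, 11 in all, and Fn1, Thbs1 and Eln have no entry. The 250 bases before the start were searched on both strands for an E-box (CACGTG), for the shorter ACGTG that every such E-box contains, for an AP-1 motif (TGACTCA), for a TEAD motif (GGAATG) and for a TATA box (TATAAA). Of 32851 promoters of 27025 genes, 6.02% hold CACGTG, 16.6% ACGTG, 4.46% TGACTCA, 12.6% GGAATG and 12.4% TATAAA. None of the first 4 motifs is in the 11 member promoters, and 5 hold TATAAA, namely 1 of 2 for Postn and Spp1, both for Tnc and the one for Thbs2. The 2 Tnc windows overlap and share the same match, which is thus counted in both. The lines below run 5′ to 3′ on the strand of the gene, with TATAAA in capitals, which begins 26 bases before the start in Postn (chr3:54360857-54361106, plus strand), 126 in Tnc (chr4:64047016-64047265, minus strand) and 211 in Spp1 (chr5:104434861-104435110, plus strand). Sparc (chr11:55420081-55420330, minus strand) has no match. A match describes the letters and is not a site.
Postn promoter 2: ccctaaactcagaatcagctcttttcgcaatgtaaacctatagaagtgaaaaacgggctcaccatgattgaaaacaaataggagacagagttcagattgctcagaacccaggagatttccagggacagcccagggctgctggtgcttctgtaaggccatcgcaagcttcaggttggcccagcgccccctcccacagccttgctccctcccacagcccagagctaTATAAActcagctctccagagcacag
Tnc promoter 1: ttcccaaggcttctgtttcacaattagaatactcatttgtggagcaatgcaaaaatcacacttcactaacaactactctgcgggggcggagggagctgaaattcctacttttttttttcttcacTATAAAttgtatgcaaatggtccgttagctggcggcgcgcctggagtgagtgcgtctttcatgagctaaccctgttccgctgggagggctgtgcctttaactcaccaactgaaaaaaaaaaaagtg
Sparc promoter: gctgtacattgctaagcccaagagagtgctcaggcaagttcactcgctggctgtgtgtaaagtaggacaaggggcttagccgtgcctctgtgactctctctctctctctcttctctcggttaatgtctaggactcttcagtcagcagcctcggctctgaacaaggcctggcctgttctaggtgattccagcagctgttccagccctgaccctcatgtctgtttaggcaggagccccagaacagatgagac
Spp1 promoter 1: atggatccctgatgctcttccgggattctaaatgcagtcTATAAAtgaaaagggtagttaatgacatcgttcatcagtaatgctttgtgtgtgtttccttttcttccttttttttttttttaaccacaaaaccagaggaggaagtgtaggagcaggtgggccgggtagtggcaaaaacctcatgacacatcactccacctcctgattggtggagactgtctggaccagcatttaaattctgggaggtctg

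Under a shared label the lines were compared with each other, which asks how the 3 lines, each the only one of its genotype, differ in culture. These comparisons share libraries and are given side by side. VM-3055 cells had less Postn, Sparc, Fbn1, Eln and Fbln5 than MYC-2983 cells under both labels, and VIM-3039 cells had more Postn, Tnc, Thbs1, Fbn1 and Fbln5 than VM-3055 cells. Postn, Sparc and the elastic fibre genes had their highest means in MYC-2983 cells under both labels, and Fn1 and Thbs1 in VIM-3039 cells.

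Between VIM-3039 and VM-3055 libraries labelled with Dox, 7 of 9 tested members were called higher and 0 lower, against 9.69% and 9.45% of 14060 genes (8 at an unadjusted p under 0.05 by limma and 7 called by voom). Fn1 had 22643 to 25627 units in VM-3055 and 59623 to 64906 in VIM-3039 cells. These libraries did not overlap, and the difference was 1.42 ± 0.0443 (SE, adjusted p = 8.23e-14). Spp1 had 9732 to 10268 and 36186 to 37242 units, also apart, at 1.88 ± 0.0307 (SE, adjusted p = 2.69e-17). Fbn1, with 28.0 to 52.6 and 224 to 282 units, had the widest gap of the called members above the floor, a 6.04-fold higher mean (2.59 ± 0.158, adjusted p = 3.5e-10). Postn (1.62 ± 0.217), Tnc (1.26) and Thbs1 (1.44) were also called. Fbln5 was at 0 in the VM-3055 libraries and averaged at least 1.01-fold higher in VIM-3039 cells, a call that a pseudocount of 10 ended (0.33). Sparc, at 0.86 (adjusted p = 2.45e-12), was under the size threshold. Labelled without Dox, 5 of 9 were higher and 1 lower, against 9.21% and 12.5% of 14461 genes. Thbs1 was 3.23-fold higher there (1.69 ± 0.0711, adjusted p = 2.64e-12), though quantile normalization gave 0.89. Postn (1.49), Tnc (1.36), Fbn1 (2.49) and Fbln5 (at least 2.36-fold) were also higher, and with a pseudocount of 10 Fbln5 had 0.67 and was not called. Fn1 (0.79) was not called there, and quantile normalization gave 0.00. Thbs2, at 0 in all 4 VIM-3039 libraries and 0.760 to 5.43 units in VM-3055, was called lower (−1.52, adjusted p = 0.00573), but with VIM-3039 cells at the floor no fold is bounded, and a pseudocount of 10 ended the call (−0.28).

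Between VM-3055 and MYC-2983 libraries labelled with Dox, 7 of 10 members were lower and 0 higher, against 18.1% and 6.54% of 14780 genes (8 at an unadjusted p under 0.05 by limma and 7 called by voom). Postn had 7.39 to 11.1 units in VM-3055 and 8665 to 9603 in MYC-2983 cells. That 992-fold lower mean was the widest gap among all member comparisons with both groups above the floor (−9.82 ± 0.0974, adjusted p = 9.84e-17). Eln, at 0 in every VM-3055 library, was at least 16.3-fold lower, and Fbln5, also at 0, at least 57.5-fold lower. Fbn1 was 13.9-fold lower (−3.79 ± 0.159, adjusted p = 6.36e-11), Sparc 4.03-fold, Spp1 3.47-fold and Tnc 2.85-fold, each with the libraries of the lines apart. Fn1 was not called (0.14, adjusted p = 0.0794), nor was Thbs1 (−0.66, adjusted p = 9.56e-07). Labelled without Dox, 5 of 10 were lower and 0 higher, against 16.6% and 8.36% of 15183 genes (9 at an unadjusted p under 0.05 by limma and 5 called by voom). Postn was 452-fold lower there (−8.85 ± 0.152, adjusted p = 4.31e-15), Fbn1 18-fold, Sparc 3.19-fold, Eln at least 15.4-fold and Fbln5 at least 135-fold. Fn1 (0.96) was called higher with the trimmed mean (1.04), with quantile normalization (1.35) and without VM-3055 replicate 3 labelled without Dox (1.02). Tnc (−0.99) was called lower without MYC-2983 replicate 1 (−1.03) or 2 (−1.0) or VM-3055 replicate 2 (−1.07), all labelled without Dox, whereas quantile normalization gave −0.55.

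Between VIM-3039 and MYC-2983 libraries labelled with Dox, 1 of 10 members was higher and 5 lower, against 5.66% and 18.3% of 14685 genes. Fn1 was the higher one, with 59623 to 64906 units in VIM-3039 against 18525 to 24726 in MYC-2983 cells (1.56, adjusted p = 3.85e-11). The lower ones were Postn (300-fold, −8.20 ± 0.099, adjusted p = 1.14e-16), Fbln5 (56.7-fold), Fbn1 (2.3-fold), Sparc (2.22-fold) and Eln (at least 17.7-fold). Spp1 (0.08) and Tnc (−0.25) were not called. Labelled without Dox, 2 of 9 were higher and 4 lower, against 6.88% and 19.3% of 14875 genes. Fn1 (1.75, adjusted p = 1.67e-13) and Thbs1 (1.11, adjusted p = 7.4e-13) were higher, though quantile normalization brought Thbs1 to 0.88. Postn (165-fold), Fbln5 (57.3-fold), Fbn1 (3.31-fold) and Eln (at least 12.2-fold) were lower.

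In these comparisons, too, rescaling moved the median of genes with at least 50 units, from −0.14 to 0.01 for VM-3055 against MYC-2983 and from −0.12 to 0.03 for VIM-3039 against MYC-2983 with Dox. The list counts that follow stand beside the shares of all genes called, given above for each pair and label. Of the 42 other matrix genes, 22 of 34 were lower and 3 higher in VM-3055 than in MYC-2983 cells labelled with Dox, with a median of −1.47 (−1.30 with floor genes at their bound) beside −0.19. Labelled without Dox the counts were again 22 lower and 3 higher of 34, with a median of −1.73 (−1.65) beside −0.10. Fbln2, a microfibril-binding fibulin, averaged 867 units in MYC-2983 cells with Dox, 245 units in VIM-3039 and 3.34 in VM-3055. VIM-3039 against MYC-2983 had 18 lower and 2 higher of 34 with Dox (median −1.46, or −0.70 with floor genes at their bound, beside −0.18) and 22 lower and 3 higher of 34 without (−1.51, or −1.26, beside −0.20). VIM-3039 against VM-3055 had 8 higher and 5 lower of 29 with Dox (0.36, or −0.00, beside 0.02) and 10 higher and 5 lower of 29 without (0.14, or 0.12, beside −0.07). Of the 18 receptors, 4 of 16 were higher and 2 lower in VIM-3039 than in VM-3055 cells with Dox, and 3 higher and 5 lower of 16 without. Itga5 averaged 10300 units in VIM-3039 and 1080 in VM-3055 cells without Dox. VM-3055 against MYC-2983 had 1 higher and 5 lower receptors of 16 with Dox and 2 and 5 of 17 without. VIM-3039 against MYC-2983 had 1 higher and 2 lower of 17 with Dox and 2 and 4 of 17 without. The fibroblast marker sums differ between the lines in the order MYC-2983, VIM-3039, VM-3055 given above, and their part in these differences was not tested.

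Tumours of each genotype were compared with normal kidney, which asks how matrix genes differ between the tumours and the tissue they arise in. In all 3 genotypes Spp1 and Postn were higher in tumours and Fbln5 was lower. Eln was called higher in VM tumours alone. Fn1, Tnc, Sparc, Thbs1, Thbs2 and Fbn1 were not called in any genotype. The 3 comparisons share the 5 kidneys. In MYC tumours 2 of 10 members were higher and 1 lower, against 16.8% and 16.2% of 17116 genes. In VM tumours 3 were higher and 1 lower, against 16.5% and 21.2%, and in VIM tumours 2 and 1, against 18% and 19.3%.

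Spp1 had 10694, 14489, 11760, 8958 and 38220 units in normal kidney replicates 1 to 5. In MYC tumours it had 192280, 86373 and 233606 units, in VM tumours 235375, 168543 and 147825, and in VIM tumours 176377, 144424 and 61074. Every tumour lay above every kidney, and kidney replicate 5 stood above the other 4. The differences were 3.52 ± 0.582 (SE, adjusted p = 0.000392) in MYC, 3.64 ± 0.508 (SE, adjusted p = 6.63e-05) in VM and 3.01 ± 0.508 (SE, adjusted p = 0.000327) in VIM tumours. Over the alternatives other than leaving out single libraries, Spp1 ran from 3.28 to 4.88 in MYC tumours. The ranges were 3.40 to 4.44 in VM and 2.76 to 3.84 in VIM tumours, and the calls stayed.

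Fbln5 had 2225, 1672, 1608, 2003 and 3527 units in normal kidney. Its levels were 202, 207 and 29.7 units in MYC tumours, 85.2, 6.19 and 17.3 in VM and 24.5, 155 and 69.8 in VIM tumours. All tumours lay under all kidneys. The difference was −4.05 ± 0.821 (SE, adjusted p = 0.00163) in MYC, −6.56 ± 0.717 (SE, adjusted p = 9.51e-06) in VM and −5.01 ± 0.717 (SE, adjusted p = 8.97e-05) in VIM tumours. For MYC tumours versus normal kidney, Fbln5 had −4.73 without MYC tumour replicate 1, −4.74 without replicate 2 and −3.36 without replicate 3. The first of these rests on 1 mouse, as the libraries left share it, and on the spread of the other groups. Leaving out VM replicate 1 or 2 gave −7.53 or −5.74, and VIM replicate 1 or 2 −4.33 or −5.64.

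Postn had 8.65, 13.1, 2.68, 4.89 and 7.59 units in normal kidney. These are close to the floor, with 2 of the 5 kidneys at or under it, so the sizes of its differences rest on few kidney reads. Postn had 64.4, 716 and 196 units in MYC tumours, 5149, 96.9 and 83.8 in VM and 90.4, 76.4 and 226 in VIM tumours. All tumours were above all kidneys, with VM replicate 1 far above the other tumours. The differences were 4.37 ± 1.31 (SE, adjusted p = 0.0167) in MYC, 5.52 ± 1.14 (SE, adjusted p = 0.00132) in VM and 3.95 ± 1.14 (SE, adjusted p = 0.0117) in VIM tumours. In MYC tumours the call was lost with voom (4.20, adjusted p = 0.111) and against the B6 (4.72, adjusted p = 0.0683) or KT kidneys alone (4.13, adjusted p = 0.0574). In VIM tumours it was lost with voom (3.95, adjusted p = 0.144), against the B6 kidneys (4.30, adjusted p = 0.0654) and without VIM replicate 3 (3.47, adjusted p = 0.0518). In VM tumours the difference was 3.58 without replicate 1, 6.44 without replicate 2 and 6.55 without replicate 3, and in MYC tumours it was 5.63 without replicate 1, which leaves 1 mouse.

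Eln had 15.6, 55.5, 22.8, 35.8 and 104 units in normal kidney. It had 2298, 781 and 239 units in VM tumours, 116, 372 and 133 in MYC and 124, 57.6 and 676 in VIM tumours. VM and MYC tumours lay above all kidneys, and VIM replicate 2 overlapped them. Only VM tumours were called, at 4.29 ± 0.854 (SE, adjusted p = 0.00103), with 3.49 without VM replicate 1 and 5.12 without replicate 3. The others were at 2.06 ± 0.979 (SE, adjusted p = 0.11) in MYC and 2.14 ± 0.854 (SE, adjusted p = 0.0532) in VIM tumours. In VIM tumours Eln was called without VIM replicate 2 (2.91) or kidney replicate 5 (2.50), with a mean of at least 10 units (2.14), quantile normalization (2.20) or a fit of the 2 groups (2.14), and was 1.15 without VIM replicate 3. In MYC tumours it was called in a fit of the 2 groups (2.06) and with each library as its own sample (2.22).

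The remaining members overlapped between tumours and kidney in most genotypes. Sparc had 1332 to 3003 units in kidney and 1939 to 8692 over the 9 tumours, with differences of 1.21 ± 0.509 (SE, adjusted p = 0.0731) in MYC, 1.10 ± 0.444 (SE, adjusted p = 0.0553) in VM and 0.87 (adjusted p = 0.124) in VIM tumours. Sparc was called in MYC tumours without MYC replicate 3 (1.53) or kidney replicate 5 (1.38), with quantile normalization (1.54) or a fit of the 2 groups (1.21). The VM tumours gave a Sparc call without VM replicate 3 (1.52) or kidney replicate 5 (1.27), with quantile normalization (1.31) or a fit of the 2 groups (1.10), and VIM tumours without VIM replicate 2 (1.28). It was 0.55 without VM replicate 1 and 0.38 without VIM replicate 3. Fn1 had 134 to 896 units in kidney and 327 to 4137 in tumours, with 1.37 ± 0.804 (SE, adjusted p = 0.194) in MYC, 0.94 (adjusted p = 0.291) in VM and 1.38 (adjusted p = 0.123) in VIM tumours. In MYC tumours Fn1 ran from 0.74 to 2.46 with 1 library left out. VIM tumours gave an Fn1 call against the B6 kidneys (2.37), without VIM replicate 3 (2.04) or without kidney replicate 5 (1.75), and had 0.66 without VIM replicate 2 and 0.72 against the KT kidneys. Tnc had 12 to 49.3 units in kidney and 8.25 to 937 in tumours. Its differences were 1.84 ± 1.11 (SE, adjusted p = 0.205) in MYC, −0.75 in VM and 1.34 in VIM tumours. In MYC tumours Tnc had 4.32 without MYC replicate 1, which leaves 1 mouse, and became a call with each library as its own sample (2.67). With 1 library left out Tnc ran from −1.11 to −0.41 in VM and from 0.56 to 1.84 in VIM tumours.

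Fbn1 had 71.0 to 243 units in kidney and 267, 708 and 466 in MYC tumours. These did not overlap, and 1.65 ± 0.633 (SE, adjusted p = 0.0519) was just short of a call. It passed without MYC replicate 3 (1.80) or kidney replicate 5 (1.89), with a pseudocount of 10 (1.58), a mean of at least 10 units (1.65), quantile normalization (1.52), voom (1.58), a fit of the 2 groups (1.65) or each library as its own sample (1.83). Thbs1 had 663 to 1870 units in kidney and 110 to 1796 in tumours, and Thbs2 53.5 to 167 and 26.8 to 384. With all libraries the Thbs1 differences were −1.33 in MYC, −1.40 in VM and −0.91 in VIM tumours. Those of Thbs2 were 0.56, −0.64 and 0.15 in the same order, and Fbn1 had −0.99 in VM tumours. None of these was called. Without MYC replicate 2 Thbs1 was called lower in MYC tumours (−1.93, adjusted p = 0.031), and without replicate 1, which leaves 1 mouse, it was −0.24. Without VM replicate 1 Thbs1 (−2.21, adjusted p = 0.0092), Thbs2 (−1.56, adjusted p = 0.0258) and Fbn1 (−1.68, adjusted p = 0.0174) were all lower in VM tumours, while without VM replicate 2 Thbs1 was −0.57 and Fbn1 −0.39.

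**Figure D3:**
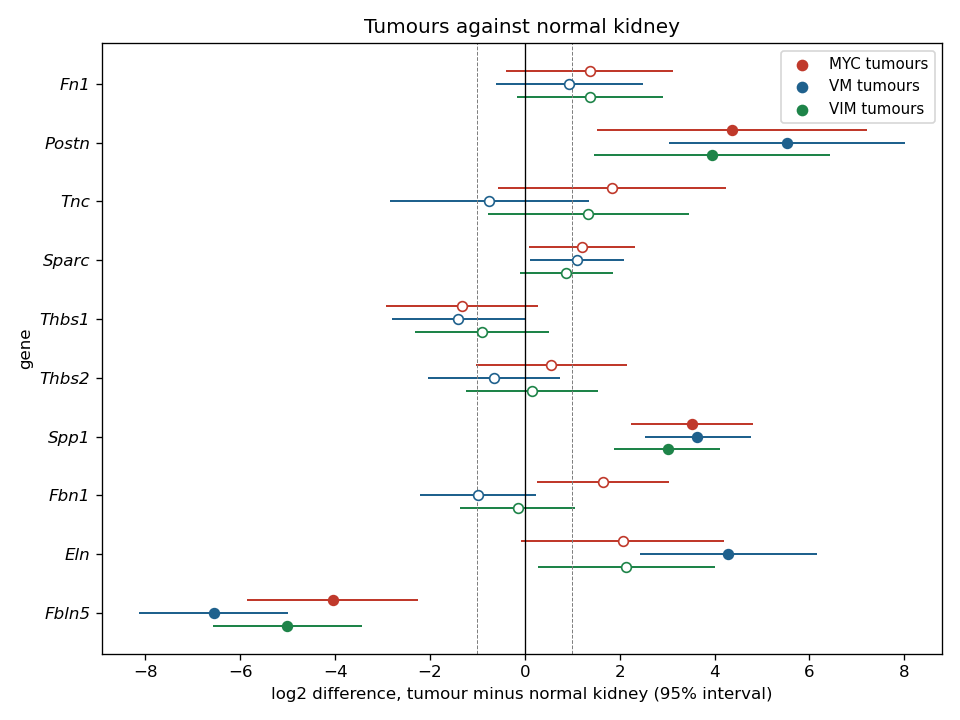
Log2 difference of each member between tumours and normal kidney, with its 95% interval, for MYC, VM and VIM tumours (5 kidneys). Filled points are called, open points are not, dashed lines mark −1 and 1, and Spp1 and Postn lie above 1 and Fbln5 under −1 in all 3 genotypes.

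Single libraries stood apart for many members at once. MYC tumour replicate 2 was higher than replicate 3, from the same mouse, for 9 of 10 members, by 6.97-fold for Fbln5 and 5.71-fold for Fn1, whereas Spp1 was 2.7-fold higher in replicate 3. VM tumour replicate 1 was highest of its group for 8 members and kidney replicate 5 for 9. The KT kidneys averaged more Fn1 (561 against 160 units) and Eln (65.0 against 19.2) than the B6 kidneys. Fibroblast markers summed to 1485, 14324 and 3842 units in MYC, 1337, 3259 and 3139 in VIM and 2431, 749 and 1223 in VM tumours, and to 2569, 4353, 2114, 3096 and 6242 in kidney. Acta2, Col1a1, Col1a2 or Col3a1 was the most abundant of them. Within their groups the highest fibroblast sums were in MYC replicate 2, VM replicate 1, VIM replicate 2 and kidney replicate 5. Those libraries were highest of their groups for 9, 8, 5 and 9 of the 10 members, and VIM replicate 3 was highest for 4. The share of all genes that were highest in each library was not counted. The counts of members by library therefore cannot be read as a trait of the members. Leukocyte markers (7 genes) summed to 18873, 4327 and 4267 units in MYC, 16488, 9242 and 9320 in VIM and 9662, 2612 and 3723 in VM tumours, led by Lyz2, and averaged 1974 in kidney. Mural sums averaged 1635 units in kidney, against 2881 in MYC tumours, 1817 in VIM tumours and 2584 in VM tumours, with Cspg4 the most abundant in tumours. Of the 6 mural markers 1 was higher in each genotype and 1, 3 and 3 were lower in MYC, VM and VIM tumours, with median differences of −1.45, −1.98 and −1.82. The shares over all genes are those given above for each genotype. Platelet sums averaged 113 units in kidney and 142, 195 and 205 in MYC, VIM and VM tumours, with Gp9 at 0 in some libraries. Endothelial sums averaged 4709 units in kidney and 1048 to 1381 in tumour groups. Proximal tubule markers, led by Slc34a1 in kidney, averaged 3562 to 5353 units in tumour groups. Markers of the loop, distal tubule and collecting duct averaged 104759 units in kidney, led by Umod. They summed to 41.0, 2769 and 93.2 units in MYC tumours, 158, 6437 and 69.8 in VIM tumours and 7.99, 14.4 and 2.47 in VM tumours, so replicate 2 stood far above the others in MYC and VIM tumours. The part of these cell types in the member differences was not tested.

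Of the 42 other matrix genes, 10 of 41 tested were higher and 5 lower in MYC tumours than in kidney, 10 and 13 in VM, and 9 and 8 in VIM tumours. Over all 17116 tested genes 16.8% were higher and 16.2% lower in MYC, 16.5% and 21.2% in VM, and 18% and 19.3% in VIM tumours. The median differences of the matrix genes were 0.09, −0.93 and −0.02, beside 0.08, −0.03 and 0.00 over all tested genes, and 0.00 in each with floor genes at their bound. Ltbp2 averaged 6.15 units in kidney and 258, 234 and 130 in MYC, VM and VIM tumours. Spock2, a testican, averaged 7.44 units in kidney and 226 in MYC tumours, and Emilin2, an elastin-associated glycoprotein, 16.4 in kidney and 453 in VIM tumours. Tnxb, tenascin X, averaged 175 units in kidney and 3.56 in VM tumours. Of the 18 receptors 5 were higher in each genotype, and 4 were lower in MYC, 5 in VM and 6 in VIM tumours, with medians of 0.42, −0.32 and −0.20. The receptor values stand beside the same shares and medians of all tested genes. Cd44, a receptor for osteopontin and hyaluronan, averaged 70.5 units in kidney and 1870, 1620 and 1220 in MYC, VM and VIM tumours. Itgb3 averaged 36.8 units in kidney, 586 in VM and 299 in VIM tumours. Cd36, a thrombospondin receptor, averaged 24100 units in kidney and 507 in MYC tumours. In MYC tumours against kidney the median over genes with at least 50 units moved from 0.11 to −0.03 with the trimmed mean.

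Between tumour genotypes limma called 0 of 10 members in each of the 3 pairs. VIM against VM tumours stands beside 1.88% higher and 0.911% lower of 17116 genes, with 1 member at an unadjusted p under 0.05 and 0 called by voom. For VM against MYC tumours the shares were 0.789% and 1.18%, with 2 members at an unadjusted p under 0.05 and 1 called by voom, Fbn1. For VIM against MYC tumours they were 2.11% and 1.79%, with 1 member at an unadjusted p under 0.05 and 0 called by voom. Fbn1 had 267, 708 and 466 units in MYC, 164, 26.8 and 54.3 in VM and 71.6, 132 and 149 in VIM tumours. MYC tumours lay above both other groups, by −2.63 ± 0.69 (SE, adjusted p = 0.0709) for VM minus MYC and −1.80 ± 0.69 (SE, adjusted p = 0.138) for VIM minus MYC. Fbln5 for VM minus MYC was −2.50 ± 0.896 (SE, adjusted p = 0.178). Eln had 2.23 ± 1.07 (SE, adjusted p = 0.316) for the same pair, and its groups overlapped. Of the other matrix genes 1 of 41 was higher and 1 lower in VIM than in VM tumours, 1 and 3 in VM than in MYC, and 0 and 3 in VIM than in MYC tumours. Thbs4, a thrombospondin of tendon and muscle, averaged 568 units in MYC tumours, 17.8 in VIM tumours and 3.94 in VM tumours. Ltbp4, which helps fibulin 5 assemble elastin, averaged 2520, 705 and 677 in that order. Of the receptors, Cd36 was higher in VIM than in VM tumours (6420 against 127 units), Itgb3 higher in VM than in MYC (586 against 130) and Itgb8 lower in VIM than in MYC (154 against 690). With 3 libraries a group, and 2 mice in the MYC group, a difference that was not called is not shown to be absent.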

How the data were processed

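Polyadenylated RNA of 38 libraries was sequenced. The authors aligned paired-end reads to mm9 with MapSplice, estimated reads per gene with RSEM and UCSC knownGene, and deposited a signal, the RSEM estimate scaled to an upper quartile of 1000. Reads per library were recovered from the step between low values, of which 94.1 to 95.9% are whole within 0.02 reads. Floors of 3 reads cover counting error only. R 4.3.3 with limma 3.58.1 (variance trend) fitted log2(value + 1) over all genes above 0 in at least 4 cell libraries of a pair, or 2 tissue samples. Tissues were fitted together with libraries of the same mouse averaged, and p-values were adjusted over all tested genes by Benjamini-Hochberg, two-sided. The fit was tested on simulated data, and the outcome of that test is not given here. All members are named, and of each list at most the 4 called genes with the largest difference and 50 units in the higher group, with fewer printed. The members and lists were chosen with earlier results of these data known. Alternatives were other pseudocounts (0.1 and 10), a filter keeping genes that average 10 units or more, no filter, trimmed mean rescaling (30% and 5%), quantile normalization, limma voom on recovered reads, all 6 cell groups together, the 2 compared groups alone, the replicate block, each library as its own sample, B6 or KT kidneys alone, and each library left out in turn. Gene positions and exons are from NCBIM37, which is mm9, and whether strand was used in counting is not stated. Figures used matplotlib 3.10.9.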

Additional observations from a re-analysis of the deposited data

Results flagged for a closer look

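Sparc in MYC-2983 replicate 4 labelled without Dox had 36499 units, far from the other 3 libraries of that group relative to their spread. In normal kidney replicate 5, Thbs1 had 1870 units and Spp1 38220, both far above the other 4 kidneys. Fbln5 had 0.694 units in VIM-3039 replicate 1 labelled with Dox, far under the other 3 libraries, and all of these are close to the floor. A gap test over 61 groups of members and libraries gave these 4, and chance gives about 1 in 20 groups.

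In 2 members an interaction of line and Dox label was called, and in others it fell short of the size threshold. For Spp1 the difference between labels was 1.09 higher in VIM-3039 than in VM-3055 cells on the log2 scale. For Fbln5 the fitted value was 1.01 higher in VM-3055 than in MYC-2983 cells, with VM-3055 at the floor, so the value bounds nothing, and several alternatives ended its call.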

How the results depend on the processing

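Over all alternatives, 1924 values of single members were recomputed, of which 1835 kept their direction and side of the threshold, 45 gained a call, 29 lost one and 15 turned direction. Of 323 counts of called members 298 stayed within 1.5 times. The cause of the changes below was not tested. The following turned direction, none of them called. With libraries left out, Eln ran from −0.11 to 0.22 for Dox in MYC-2983, and Thbs2 from −0.21 to 0.52 with Dox and −0.30 to 0.63 without for VM-3055 against MYC-2983. Spp1 for VIM-3039 against MYC-2983 with Dox was −0.14 with quantile normalization. Against B6 kidneys Tnc in VM tumours was 0.09 and Fbn1 in VIM tumours 0.18, and against KT kidneys Thbs2 in VIM tumours was −0.27. With libraries left out these ran from −0.35 to 0.17 for Fbn1 and −0.19 to 0.43 for Thbs2 in VIM tumours. The count of called members in the interaction of VIM-3039 and VM-3055 was 2 with quantile normalization and 1 to 2 with a library left out. For VM-3055 and MYC-2983 it was 0 with the trimmed mean, 3 with quantile normalization and 0 to 2 left out, and for VIM-3039 and MYC-2983 0 to 1 left out. MYC tumours against kidney gave 5 with quantile normalization, 6 in a fit of the 2 groups, 6 with each library as its own sample and 3 to 5 left out. VM tumours gave 4 to 7 and VIM tumours 3 to 5 left out. VM against MYC tumours gave 1 with voom, 1 with each library as its own sample and 0 to 2 left out. Left-out counts were 8 to 9 for Dox in MYC-2983, 6 to 8 in VM-3055 and 5 to 7 in VIM-3039. With the replicate block the counts were 6 for Dox in VM-3055, 6 in VIM-3039, 7 and 6 for VIM-3039 against VM-3055 with and without Dox, and 1 for their interaction. In a check of pairing by replicate number, the mean correlation over 4 pairs of the same number was −0.184, 0.0154, 0.058 and 0.0824 in the first 4 of those comparisons. For pairs of different numbers it was 0.0614, −0.00499, −0.0193 and −0.0275. A pseudocount of 10 lowered the genes called over the table from 2942 to 1936 for Dox in MYC-2983, from 2691 to 1653 (with Dox) and 3141 to 1981 (without) for VIM-3039 against VM-3055, from 3635 to 2314 and 3515 to 2198 for VM-3055 and VIM-3039 against MYC-2983 with Dox, and in the interactions from 918, 1389 and 1416 to 458, 675 and 674, or with a mean of at least 10 units to 541, 856 and 854. Tumour pairs moved most, from 477, 337 and 669 to 265, 196 and 374 without a filter and 40, 0 and 1 in fits of the 2 groups. With each library as its own sample VM against MYC gave 510 and VIM against MYC 1274, and left out, 105 to 2149 for the latter. Lower genes made up 77% for Dox in MYC-2983 and 58% with quantile normalization, 76.2% and 51.6% in VM-3055, and 68.4% and 50.7% in VIM-3039. The floor of 1.16 to 5.65 units limits Thbs2 in cells, Eln and Fbln5 in VM-3055 and VIM-3039 cells and Postn in normal kidney.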
